A study of Sus scrofa with 6 samples.

Results

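Lysosome genes were followed through hypothalamus, pituitary and ovary in estrous and anestrous sows. The members were the genes whose pathway annotation in the deposited tables has the entry Lysosome and lacks the entry Oxidative phosphorylation. Of 19465 genes, 83 had the first entry, 7 of these also had the second and were left out, and 76 remained. The 7 left out were all subunits of the lysosomal proton pump (ATP6V0A2, ATP6V0A4, ATP6V0C, ATP6V0D1, ATP6V0D2, ATP6V1H and TCIRG1). In each tissue a member was used when the mean of its 2 normalised counts was at least 10, which 73 members reached for hypothalamus, 74 for pituitary and 74 for ovary.

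The animals were primiparous sows, that is sows with 1 litter behind them, of the cross Landrace x Large White. One state was normal estrus, and in the other inactive ovaries are given as the source of the anestrus. The labels name 3 sows for each state without saying whether their RNA was mixed, and there was 1 RNA sequencing library per tissue and state, 6 in all. The comparison asks which genes of this axis differ between the states. With 1 library against 1, no difference has a replicate check and no test of the states was made within a tissue: "higher" and "lower" say where the anestrous library stood against the estrous library. Intervals of 95% are exact binomial (Clopper-Pearson), cover the counting error of reads only and leave out the spread between sows. PCR copies of a molecule cannot be counted out, so the intervals may be too narrow even for counting error. The libraries held 15314325 to 17384789 reads assigned to genes.

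Lysosomes are acid compartments in which hydrolases break down protein, sugar chains, lipids and nucleic acids that arrive by endocytosis, phagocytosis or autophagy. A proton pump acidifies them, heavily glycosylated membrane proteins line them, and most soluble hydrolases are tagged with mannose 6-phosphate in the Golgi and carried by receptors into clathrin coated vesicles with adaptor complexes. In the ovary the compartment is known for the turnover of follicles and corpora lutea, where macrophages clear dying cells, and for the release of cholesterol from lipoproteins that steroid-producing cells take up.

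The largest counts of differing lysosome genes were in the ovary. Of the 74 members measured there, 33 were at least 2-fold higher in the anestrous library and 1, CTSL, was at least 2-fold lower, where 2-fold means a log2 fold of at least 1 in size after adding a pseudocount of 1. Over all 13193 ovary genes at the same floor, 13.6% were higher and 10.7% lower by that measure. The median log2 fold was 0.81 over the members and 0.01 over all genes, and 61 members lay above 0, as did 50.4% of all genes. In bulk tissue more cells of a type and more RNA per cell cannot be told apart. Among genes with a mean normalised count of at least 1000, 24 of 50 members were higher and 1 lower, against 12.4% and 5.68% of 3202 genes. In the hypothalamus 0 members were higher and 3 lower (all genes 1.99% and 2.61%), with a median of -0.05 (-0.14 with equal library totals), and 31 of 73 lay above 0 (17 with equal totals; all genes 49.8%). In the pituitary 1 was higher and 0 lower (all genes 2.27% and 4.23%), with a median of 0.06 (-0.06 with equal library totals), and 40 of 74 lay above 0 (all genes 49.7%). Scaling each pair of libraries to equal totals in place of the deposited size factors moved the median of all genes by -0.09 in the hypothalamus and -0.12 in the pituitary. In the ovary that shift was -0.20, and 22 members were higher and 2 lower, against 10.5% and 14.3% of all genes.

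**Figure D1:**
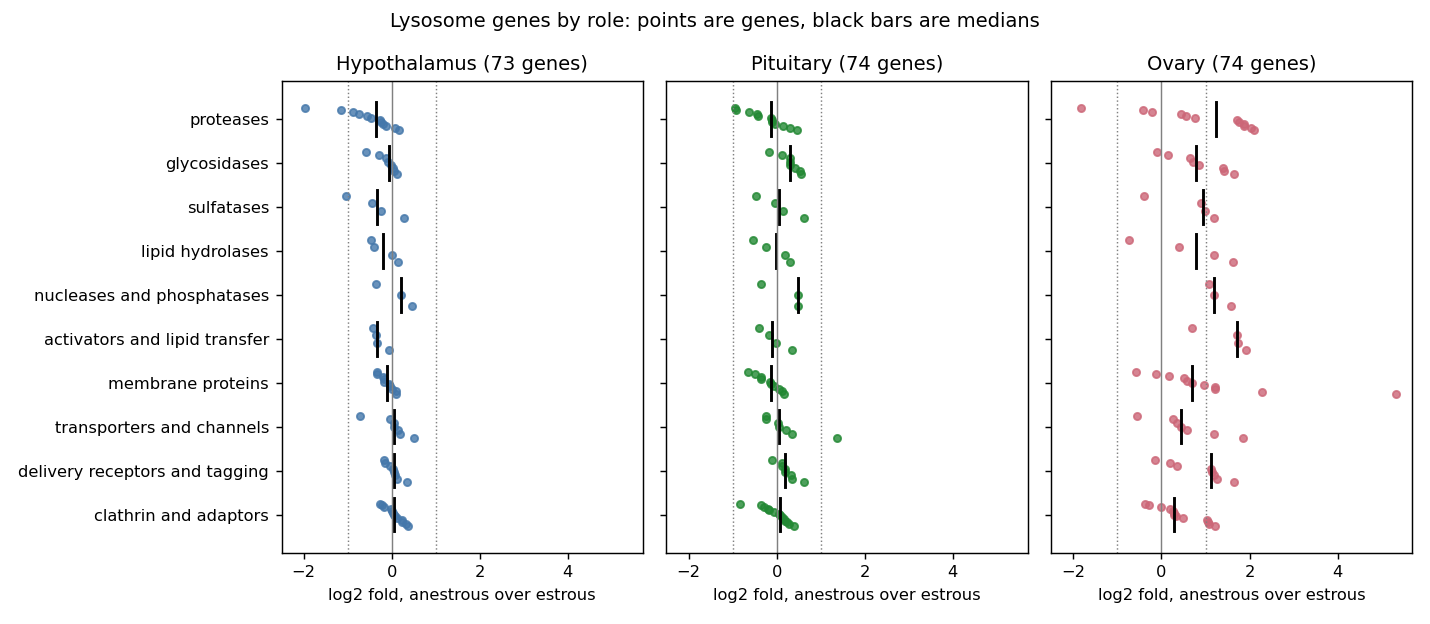
Log2 fold (anestrous over estrous, pseudocount 1) of each member by role group in the 3 tissues, each point 1 gene and each bar the group's median. Points of the hypothalamus and pituitary lie around 0, while 33 of 74 ovary points lie at or above 1 and 1 lies below -1.

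The share of all reads that came from the 76 members shows the same difference by tissue. It was 0.980% (95% interval 0.975 to 0.985) in the estrous and 0.905% (0.900 to 0.909) in the anestrous hypothalamus. The pituitary gave 0.804% in estrus and 0.744% in anestrus. In the ovary it was 1.92% (1.92 to 1.93) in estrus and 3.73% (3.72 to 3.74) in anestrus, so both ovary libraries stood above the other 4 and the anestrous one highest. The summed normalised count of the members was 2.23-fold as high in the anestrous as in the estrous ovary, against 0.983-fold in the hypothalamus and 1.00-fold in the pituitary. Part of the hypothalamus and pituitary shares depends on a few very abundant genes: without the 10 genes with most reads in each library, hypothalamus shares were 1.23% and 1.16%, pituitary shares 1.21% and 1.16%, and ovary shares 2.1% and 4.22%.

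A pair of genes carried much of the ovary's summed difference. PSAP (ENSSSCG00000010281) encodes prosaposin, the precursor of the saposins that present sphingolipids to their hydrolases, and CTSB (ENSSSCG00000023666) encodes cathepsin B, a cysteine protease. PSAP made up 28.7% and CTSB 22.3% of the net gain in normalised counts, followed by CTSH with 7.36%, CTSZ with 6.63%, NPC2 with 4.14% and LIPA with 4.04%. CTSL counted against it, at -5.17%. Together PSAP and CTSB held 24.5% of the lysosome reads of the estrous and 39.1% of those of the anestrous ovary. Without both, the summed count was still 1.80-fold higher, at 1.45% of reads in estrus and 2.27% in anestrus.

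**Figure D2:**
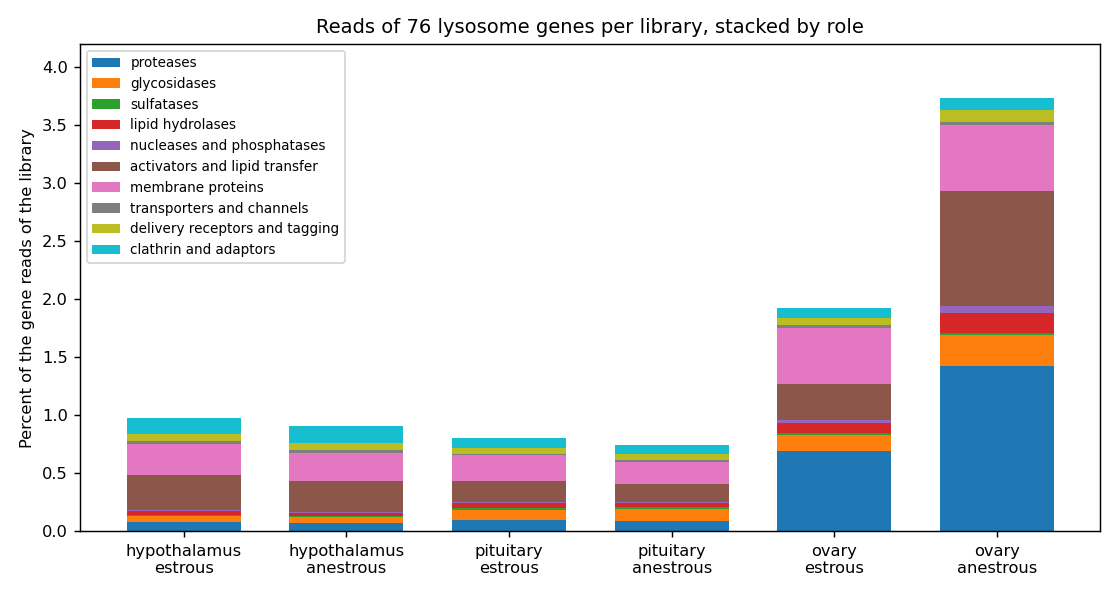
Percent of the gene reads of each of the 6 libraries (y axis) that came from the members, stacked by role group. The anestrous ovary stands highest at 3.73% against 1.92% in the estrous ovary, and the bands of proteases and of activators and lipid transfer proteins widen most.

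The lysosomal proteases differed in both directions. Of 12 in the ovary, 6 were at least 2-fold higher and 1 lower, with a median log2 fold of 1.25. For this and the role groups below, 13.6% of all ovary genes were higher and 10.7% lower. With equal library totals these shares were 10.5% and 14.3%. CTSH (cathepsin H, an aminopeptidase, ENSSSCG00000001770) gave 8175 reads in the estrous and 32499 in the anestrous ovary, 4.31-fold higher (4.2 to 4.41). CTSZ (cathepsin Z, a carboxypeptidase) gave 7857 and 29743 reads, 4.10-fold higher (4.0 to 4.21). CTSC (cathepsin C, which activates granule serine proteases of leukocytes) gave 3253 and 10975 reads, 3.66-fold higher. CTSA, the protective protein that shields the lysosomal galactosidase and neuraminidase, gave 4502 and 14030 reads, 3.38-fold higher. CTSB gave 35518 and 108331 reads, 3.31-fold higher (3.27 to 3.35). NAPSA, an aspartic protease known from lung and kidney, had few reads in the ovary, 31 and 108, and was 3.78-fold higher (2.51 to 5.83). CTSS (9960 and 15652 reads), a protease of antigen presenting cells, TPP1 (4052 and 5516), a tripeptidyl peptidase, and CTSK (7470 and 9434), a collagen-degrading protease, were higher by less than 2-fold.

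CTSL (cathepsin L, a cysteine endopeptidase of lysosomes, ENSSSCG00000010948) went the other way. It gave 26462 reads in the estrous and 6898 in the anestrous ovary, 3.54-fold lower (3.45 to 3.64). Among all genes of the ovary ranked by reads it moved from place 62 to place 343, while CTSH moved from 260 to 38 and CTSB from 38 to 13. Reads between near-identical copies could have been split by the counting: another gene of the tables that the reference names CTSV had 6326 and 5223 ovary reads, so the value of CTSL is uncertain to that extent. In the other tissues CTSL had few reads, 63 and 33 (hypothalamus) or 31 and 15 (pituitary), and was lower in both, by 1.85-fold (1.20 to 2.91) and 1.95-fold (1.02 to 3.89).

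**Figure D3:**
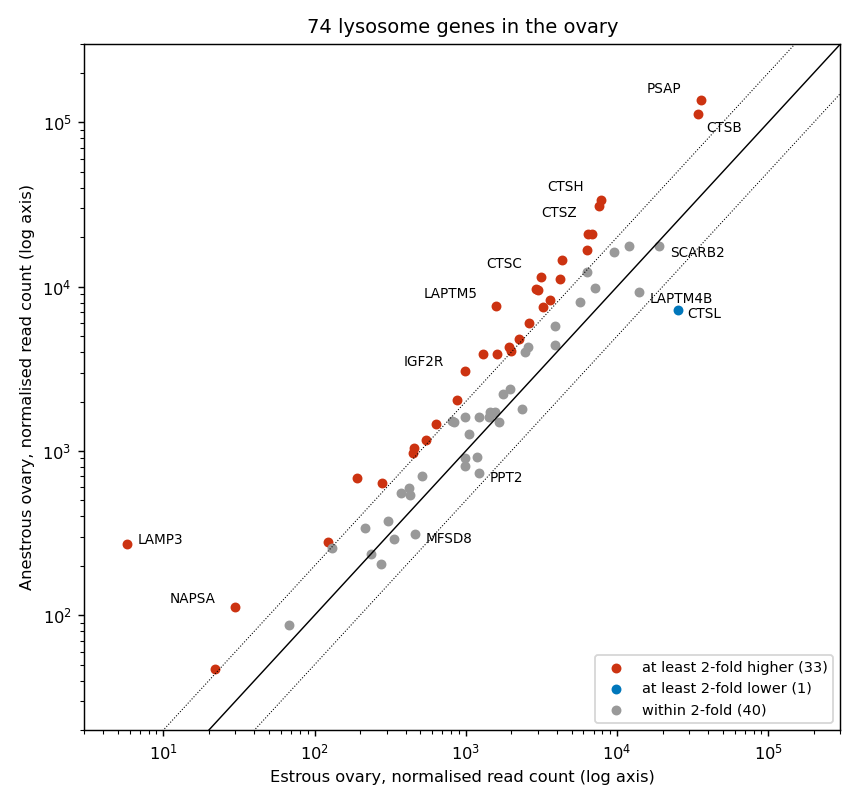
Normalised count of each member in the estrous (x) and the anestrous (y) ovary library, both axes on a log scale, with lines for equal values and for 2-fold. PSAP and CTSB lie highest, most points lie above the line of equality, and CTSL lies far below it.

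Of the proteins that help hydrolases reach lipids or move lipid out, 4 of 5 passed the floor in the ovary, 3 were at least 2-fold higher, and the median was 1.72. PSAP gave 37498 reads in estrus and 131915 in anestrus, 3.81-fold higher (3.77 to 3.86), and moved from place 33 to place 7 among ovary genes. GM2A, the activator that lifts a ganglioside to its hydrolase, gave 3011 and 9265 reads, 3.33-fold higher. NPC2, a soluble protein that hands cholesterol to the membrane protein NPC1, gave 6681 and 20206 reads, 3.28-fold higher (3.19 to 3.37). NPC1 itself gave 1027 and 1537 reads, 1.62-fold higher, so the partners differed unequally. In the hypothalamus all 4 were below 0, with log2 folds from -0.42 (GM2A) to -0.05 (PSAP).

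The 4 lipid hydrolases split, with 2 at least 2-fold higher in the ovary (1 with equal library totals, LIPA). LIPA, the acid lipase that frees cholesterol from cholesteryl esters taken up with lipoproteins, gave 7075 and 20215 ovary reads, 3.10-fold higher (3.01 to 3.18). ASAH1, acid ceramidase, gave 2726 and 5757, 2.29-fold higher. SMPD1, acid sphingomyelinase, was 1.31-fold higher, from 1271 to 1538 reads. PPT2, a thioesterase, gave 1277 and 707 reads, which made it 1.67-fold lower (1.52 to 1.83).

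Among the 8 glycosidases, 3 were at least 2-fold higher in the ovary, 7 lay above 0, and the median was 0.79. GUSB, which cleaves glucuronic acid from glycosaminoglycans, gave 4346 and 10697, 2.67-fold higher. HEXA, which removes a terminal amino sugar from gangliosides, gave 6551 and 16020 reads, 2.65-fold higher (2.57 to 2.73). NEU1, the lysosomal sialidase, was 1.81-fold higher and GALC, which cleaves galactosylceramide, 1.58-fold higher. AGA, which cleaves sugar from asparagine, was 1.08-fold lower, within counting error of equal (0.986 to 1.18). Of the nucleases and phosphatases 3 of 3 were at least 2-fold higher, but with equal library totals ACP2 alone. The values were those of ACP2, lysosomal acid phosphatase (1353 and 3717 reads, 2.98-fold), ENTPD4, a nucleotide phosphatase (290 and 612, 2.29-fold), and DNASE2, an acid DNase (2347 and 4605, 2.13-fold).

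Of the 4 sulfatases and related genes 1 was at least 2-fold higher in the ovary, or 0 with equal library totals (all genes 13.6% and 10.5%). ARSB, which removes sulfate from dermatan and chondroitin sulfate, gave 127 and 269 ovary reads, 2.30-fold higher (1.85 to 2.86). ARSG gave 136 and 248, 1.98-fold higher (1.6 to 2.45), just under that line. GALNS, which acts on keratan sulfate, was 1.86-fold higher, and SUMF1, which activates sulfatases in the endoplasmic reticulum, gave 2461 and 1734 reads, 1.31-fold lower. The members just inside the line were AP1B1 at 2.04-fold and AP4S1 at 2.12-fold, and the next outside after ARSG was LAMP1 at 1.94-fold.

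Of 11 membrane proteins of the lysosome, 4 were at least 2-fold higher in the ovary and the median was 0.69. They ranged most widely through LAMP3 alone. The others ran from -0.58 (LAPTM4B) to 2.29 (LAPTM5) on the log2 scale, and the proteases from -1.82 to 2.11. LAMP3 (ENSSSCG00000026097), a membrane protein known from mature dendritic cells and lung, gave 6 reads in the estrous and 261 in the anestrous ovary, 47.1-fold higher (21.4 to 130). It was the only member with an adjusted p of at most 0.05 in the authors' deposited table (adjusted p = 0.00216), a limit that 0.819% of all ovary genes at the floor passed, and that p compares 2 libraries. Elsewhere 0 members passed it, where 0.868% (hypothalamus) and 0.761% (pituitary) of all genes did. LAPTM5, a lysosomal protein of blood cells, gave 1639 and 7378 reads, 4.88-fold higher (4.62 to 5.15). CD68, a glycoprotein abundant in macrophages, gave 3745 and 7994 reads, 2.31-fold higher, and LITAF, an endosomal protein, was 2.32-fold higher.

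The structural glycoproteins of the lysosomal membrane were under the 2-fold line. LAMP1 gave 6607 and 11818 ovary reads, 1.94-fold higher (1.88 to 2.0), and LAMP2 gave 2567 and 3827, 1.62-fold higher. CD63, a tetraspanin, was 1.49-fold higher and CD164, a sialomucin, 1.43-fold. SCARB2, a scavenger receptor relative of the lysosomal membrane, gave 19824 and 16899 reads, 1.08-fold lower (1.06 to 1.10). LAPTM4B gave 14504 and 8932 reads, 1.5-fold lower (1.46 to 1.54), while its paralog LAPTM4A was 1.13-fold higher (1.08 to 1.18), but lower with equal library totals.

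Of the 7 transporters, channels and related proteins, 2 were at least 2-fold higher in the ovary (1 with equal library totals, where CTNS fell under the line), with a median of 0.44. Of all ovary genes 13.6% were higher, or 10.5% with equal totals, so the latter count is near that share. CTNS, the cystine exporter, gave 475 and 997 reads, 2.27-fold higher. The calcium channel MCOLN1 was 1.36-fold and the sialic acid exporter SLC17A5 1.5-fold higher. MFSD8, a membrane protein of the transporter superfamily, gave 479 and 300 reads, 1.47-fold lower.

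Delivery of hydrolases gave 5 of 8 genes at least 2-fold higher in the ovary, with a median of 1.13. With equal library totals 2 of 8 were, IGF2R and GGA2, and M6PR, SORT1 and NAGPA fell under the line. The mannose 6-phosphate receptors gave these values: IGF2R gave 1025 and 2947 reads, 3.12-fold higher (2.90 to 3.35), and M6PR 2024 and 4130, 2.21-fold higher (2.1 to 2.33). SORT1, a sorting receptor that does not need the tag, was 2.30-fold higher, and NAGPA, which uncovers the tag, 2.17-fold higher. GNPTG, a subunit of the enzyme that begins the tag, was 1.14-fold higher, but lower with equal library totals. The adaptors GGA1, GGA2 and GGA3, which load the receptors into vesicles, differed from each other: GGA2 was 2.41-fold higher, GGA1 1.27-fold higher and GGA3 1.11-fold lower.

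Clathrin and the adaptor subunits gave the smallest ovary median, 0.28 over 13 of 14 genes, or 0.08 with equal library totals. At least 2-fold higher were 4 (13.6% of all genes). With equal totals AP1S2 alone was higher, 1 of 14, and AP1M2, which then passed the floor, was at least 2-fold lower. Of all genes 10.5% were higher and 14.3% lower with equal totals, so these counts do not stand above the background. AP1S2 gave 910 and 1949 reads, 2.32-fold higher, and CLTC, the clathrin heavy chain, 571 and 1122, 2.13-fold higher. AP1B1 gave 2065 and 3894 reads. AP4S1 had only 23 and 45 reads, and its interval runs from 1.26 to 3.67. The other subunits of AP-1 did not move alike: AP1M1 was 1.26-fold and AP1G1 1.22-fold higher, and AP1G2 was 1.29-fold lower. AP1M2, the epithelial form, had 17 and 3 reads and was under the floor with the deposited size factors. PSAPL1, with 1 and 0 reads, was the other member under the ovary's floor.

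**Figure D4:**
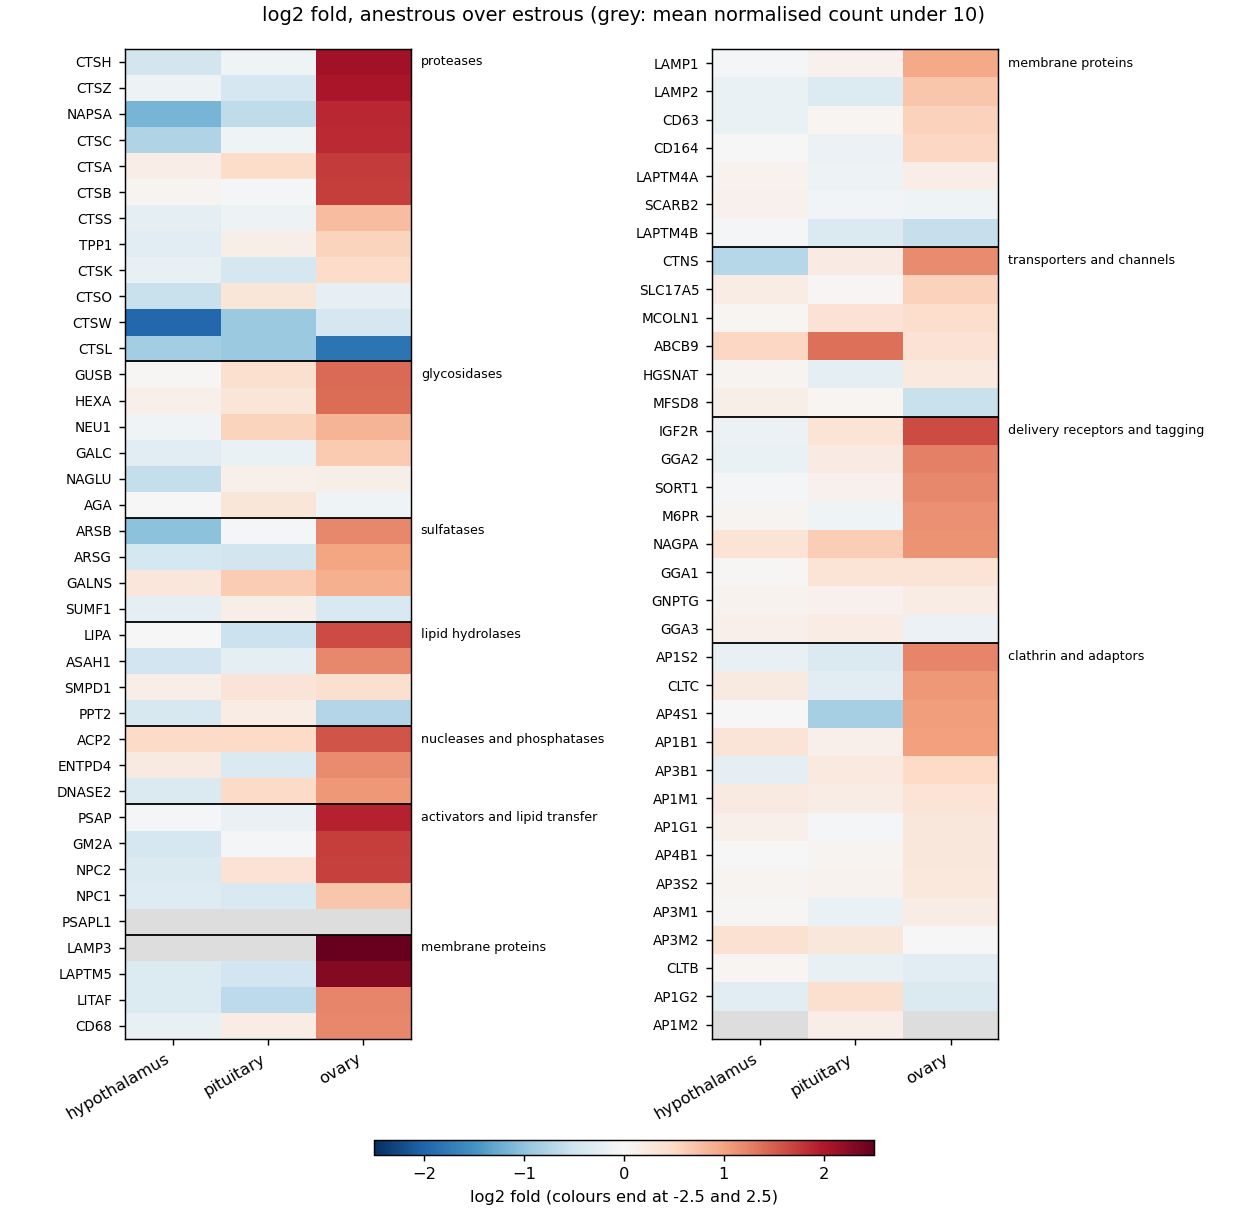
Log2 fold of the members reported here (rows, by role group and ordered by ovary fold) in the 3 tissues, from blue (lower in the anestrous library) to red (higher), grey where the mean normalised count was under 10. The ovary columns are mostly red and the other columns mostly pale, with CTSL blue in all 3.

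In the hypothalamus the 3 members at least 2-fold lower were CTSW, NAPSA and ARSB, and with a floor of 200 it was ARSB alone (0.355% of all genes). CTSW, a cysteine protease of cytotoxic lymphocytes, gave 47 and 11 reads, 4.14-fold lower (2.12 to 8.85). NAPSA gave 84 and 36 reads, 2.26-fold lower (1.51 to 3.44), and ARSB 480 and 227, 2.05-fold lower (1.75 to 2.41). Of the 12 proteases 10 lay below 0, with a median of -0.36, and CTSC (265 and 152 reads) was 1.69-fold lower. CTNS was 1.65-fold and NAGLU, which acts on heparan sulfate, 1.5-fold lower. At the other end stood ABCB9, a peptide transporter (360 and 497 reads, 1.42-fold higher), ACP2 (1.39-fold) and AP3M2, the neuronal adaptor subunit (2196 and 2765 reads, 1.30-fold).

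Cell type markers also differed between the hypothalamus libraries, in both directions, and their part in the values of the members was not tested. Of 12 macrophage and microglia markers at the floor 9 lay below 0, with a median of -0.29, and 1, CSF1R, was at least 2-fold higher (1.70). Their summed level was 1223 RPM (reads scaled to a common library total) in the estrous and 968 in the anestrous library. Astrocyte markers, 4 of 5 below 0, summed to 17885 and 12395 RPM. Oligodendrocyte markers, 4 of 4 below 0, summed to 17174 and 12527 RPM, and neuron markers, 7 of 7 above 0, to 3510 and 4695.

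In the pituitary ABCB9 was the one member at least 2-fold different, with 154 and 379 reads, 2.61-fold higher (2.16 to 3.17). In the authors' deposited table its adjusted p was 0.110. The glycosidases lay mostly higher, with 7 of 8 above 0 and a median of 0.31 (0.19 with equal library totals): NEU1 was 1.48-fold and GUSB 1.33-fold higher. GALNS (679 and 993 reads) was 1.55-fold and NAGPA 1.54-fold higher. Lowest were CTSW (88 and 43 reads, 1.93-fold lower), CTSL, AP4S1 (44 and 23, 1.81-fold), LITAF (626 and 375, 1.58-fold), NAPSA (22 and 13, 1.6-fold) and LIPA, whose 3507 and 2266 reads made it 1.46-fold lower (1.38 to 1.54) where the ovary had it higher. Macrophage markers summed to 259 and 224 RPM there.

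Of the 73 members measured in all 3 tissues, 16 lay above 0 in each (among them ABCB9, ACP2, AP1B1, CTSA, GALNS, GUSB, HEXA, MCOLN1, NAGPA and SMPD1) and 3 lay below 0 in each (CTSL, CTSW and LAPTM4B). With equal library totals the numbers were 9 and 7. In no member was the difference 2-fold in the same direction in all 3. Taken by tissue, 42.5% (hypothalamus), 54.1% (pituitary) and 82.4% (ovary) of the members at the floor lay above 0. The shares of all genes with these shared patterns were not counted, so the numbers cannot be set against a background. Across the 73 members the log2 folds of hypothalamus and pituitary had a Spearman rho of 0.31 (0.14 over all 12600 genes), those of hypothalamus and ovary -0.13, and those of pituitary and ovary -0.07. These are descriptions across genes, which are not independent replicates, and tissues may come from the same sows.

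The ovary also held the highest levels. Tables were normalised by tissue, so levels across tissues are given in RPM. For 41 of the 75 members that passed the floor in at least 1 tissue, both ovary libraries lay above the other 4, against 28.3% of 14702 genes. The hypothalamus was above all others for 11 members (30.1% of genes) and the pituitary for 4 (9.53%). SCARB2 gave many reads throughout, at place 76 in both hypothalamus libraries and 86 and 120 in the ovary. CTSH took few reads in the hypothalamus, at places 9843 and 10472 among all genes.

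The tissue labels matched markers of the anterior pituitary, of neurons and of granulosa cells. Anterior pituitary hormone genes summed to 248811 and 259550 RPM in the pituitary and at most 459 elsewhere, and neuron markers to 3510 and 4695 in the hypothalamus and at most 558 elsewhere. Granulosa cell markers summed to 6631 and 1258 in the ovary and at most 16.5 elsewhere. A hypothalamus list (AVP, OXT, HCRT, PMCH and POMC) did not separate the tissues, and it shares POMC with the pituitary list. It summed to 1850 and 886 RPM in the hypothalamus and to 47553 and 18926 in the pituitary. Within the hypothalamus 2 of its 5 genes were at least 2-fold higher and 3 lower, from -4.93 (AVP) to 1.34 (HCRT) on the log2 scale.

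Markers of other cells differed along with the ovary's lysosome genes, and their part in the result was not tested. Of 14 macrophage markers at the floor, 9 were at least 2-fold higher, 0 lower and 13 above 0, with a median of 2.03. Their summed level was 1289 RPM in the estrous and 2265 in the anestrous ovary. CSF1R, a growth factor receptor of macrophages (3.90 on the log2 scale), CX3CR1 (2.77), MSR1 (2.68) and SPI1 (2.55) were far higher. C1QA (-0.19), C1QC (0.06) and MRC1 (0.21), also macrophage genes, were near 0, and CD163 had 11 and 1 reads. CSF1R was also higher in the hypothalamus (1.70) and the pituitary (1.49). Most macrophage markers lay below 0 there, 9 of 12 in the hypothalamus and 8 of 12 in the pituitary. In the ovary the neutrophil markers S100A8, S100A9 and S100A12 were higher by 6.42, 7.26 and 8.38 on the log2 scale, with 1.55 and 307 RPM summed over the list of 5.

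Most follicle and steroid-producing cell markers were lower in the same library, and their part was likewise not tested. Granulosa cell markers were below 0 in 5 of 5, at 6631 and 1258 RPM, with a median of -1.70. Theca and luteal markers were at least 2-fold lower in 4 of 5 (8624 and 3497 RPM), and oocyte markers in 4 of 5 at the floor. The remaining theca and luteal marker, HSD3B1, went the other way, at a log2 fold of 2.38. Endothelial markers had a median of 0.41 and stromal markers one of -0.03, each over 4 genes (0.21 and -0.23 with equal library totals). The stromal genes ran from -0.78 (COL1A2) to 1.39 (LUM).

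**Figure D5:**
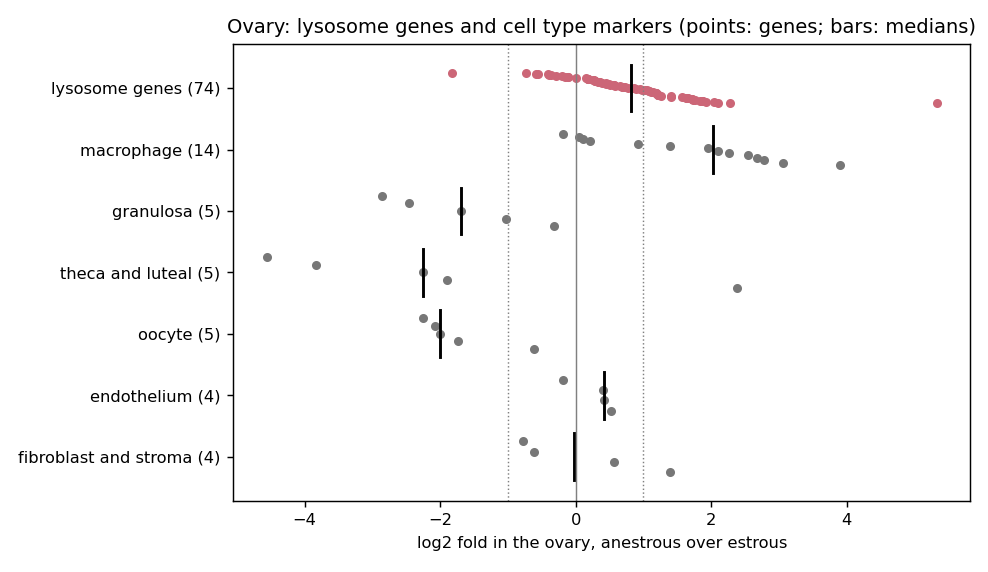
Log2 fold in the ovary (anestrous over estrous) of each marker gene at the floor, by cell type, beside the lysosome genes, with bars for medians. The macrophage median (2.03) lies above that of the lysosome genes (0.81), and the granulosa, theca and luteal, and oocyte medians lie below 0.

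Other genes of the pathway were taken from lists that the annotation entry did not define. For these lists too, 13.6% of all ovary genes were at least 2-fold higher and 10.7% lower (10.5% and 14.3% with equal library totals). Of 21 proton pump subunits found by name, 15 passed the floor in the ovary, 6 were at least 2-fold higher, 0 lower and 14 above 0, with a median of 0.72. With equal library totals 16 passed, 5 were higher and 1 lower, with a median of 0.47. In the hypothalamus 0 of 17 were 2-fold different (all genes 1.99% higher and 2.61% lower), with a median of 0.23, or 0.14 with equal library totals. A further 14 genes of the role groups lacked the Lysosome entry in the tables. In the ovary 7 of them were at least 2-fold higher (4 with equal library totals) and 1 lower, with a median of 0.92. LGMN, the asparagine endopeptidase, gave 9610 and 30891 reads (log2 fold 1.80), and MAN2B1 (1.28), a mannosidase, was also higher. AP3B2, the neuronal adaptor subunit, was lower (-1.36). GAA, acid glucosidase, reached 0.94 in the pituitary. CTSD and GLA had no row under their names and are not analysed here.

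Regulators of lysosomes, among them transcription factors and the nutrient-sensing machinery on the lysosomal surface, were a list of 18. In the ovary 1 was at least 2-fold higher (TFEC, 1.41; 13.6% of all genes), and 14 lay above 0, with a median of 0.36 (11 and 0.15 with equal library totals). The relatives of TFEC, TFEB (0.67), TFE3 (0.55) and MITF (0.47), transcription factors of lysosomal genes, were higher by less than 2-fold. In the pituitary MITF was at 1.16, with only 7 and 16 reads.

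A count test over all 6 libraries, with tissue as a block, uses tissues in place of replicates, so its p-values do not measure the spread between sows. With edgeR's quasi-likelihood test 0 of 74 members had an adjusted p of at most 0.05 (0% of all genes), and 6 (8.11%) had an unadjusted p under 0.05, against 3.58% of all genes. DESeq2 called 1 of 76, CTSL, at a log2 fold of -1.32 (adjusted p = 0.0432), against 0.272% of all genes.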

How the data were processed

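RNA was sequenced from 6 libraries, 1 per tissue and state, with an Illumina TruSeq kit per the labels' protocols. TopHat2 2.1.0 was used, per the submitters' processing notes, and the labels name DESeq. Read counter, genome build, annotation and strand setting: not given in the sources used here. Overlapping genes and near-identical copies are therefore uncertain. The deposited tables, 1 per tissue, hold a signal that equals reads over a library size factor. All values (100%) were whole multiples of 1 read within 0.01, so reads were recovered. The adjusted p-value is the authors', per the file headers.

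Folds are ratios of normalised counts, with intervals from the reads. The log2 fold adds a pseudocount of 1, which understates low genes. Counts used a floor of 10 and a log2 fold of 1. Reads were not divided by transcript length, so ranks and shares by reads also depend on length and do not order genes by transcript number. Alternatives were 3 other scalings, a pseudocount of 5, no floor or floors of 50 and 200, other memberships, and count tests in edgeR 4.0.16 and DESeq2 1.42.0. Only the edgeR test was tried on simulated data. Members, role groups and lists were chosen with earlier results of these data known. Named genes were the 10 highest and 10 lowest members per tissue with a mean of at least 50, up to 4 per role group, well known lysosomal genes, those with most reads, and others chosen after their values were seen. The tables and a gene name table (Ensembl pig) gave symbols. Of the members, 64 had a symbol in the latter and 2 of these differed, among them CLTB. Some genes that the rule names are left out of the text. Gene sequences were not used here.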

Additional observations from a re-analysis of the deposited data

Results flagged for a closer look

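A pair of members was at least 2-fold different in opposite directions in 2 tissues, and neither difference between tissues was tested. The share of all genes with such a pattern was not counted, so whether a pair is many is not known. Of all genes 2.61% were at least 2-fold lower in the hypothalamus and 13.6% higher in the ovary. NAPSA had a log2 fold of -1.16 in the hypothalamus (84 and 36 reads) and 1.88 in the ovary (31 and 108 reads). ARSB had a log2 fold of -1.03 in the hypothalamus (480 and 227 reads) and 1.19 in the ovary (127 and 269 reads). In the pituitary, NAPSA gave 22 and 13 reads and ARSB 37 and 34.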

How the results depend on the processing

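Settings compared were each scaling, pseudocount and membership tried, no floor, and floors of 10, 50 and 200. Under these the median log2 fold stayed above 0 in the ovary (0.57 to 0.88) and below 0 in the hypothalamus (-0.14 to -0.01). Among members with a mean of at least 1000 the hypothalamus median was instead above 0, at 0.04. There 21 of 35 members lay above 0, against 62.5% of all genes. The ovary median at that level was 0.92. The pituitary median went from 0.06 to -0.06 with equal library totals. Ovary counts of higher members were 33, 32 and 22 with trimmed means, DESeq2 size factors and equal totals. Requiring the authors' adjusted p of at most 0.05 left 1 higher and 0 lower members in the ovary, 0 higher in the pituitary and 0 lower in the hypothalamus. Equal totals gave 2 lower members in the pituitary and 2 in the ovary. No floor gave 3 higher in the pituitary and 2 lower in the ovary, and a floor of 200 gave 1 lower in the hypothalamus. Without the 6 members also annotated to phagosomes or antigen processing (CTSB, CTSL, CTSS, LAMP1, LAMP2 and M6PR), 0 were lower in the ovary. Shares without the 10 most read genes of each library were 1.23%, 1.16%, 1.21%, 1.16%, 2.1% and 4.22%, in the order hypothalamus, pituitary, ovary, estrus first. Equal totals also took members above 0 in the hypothalamus from 31 to 17, and a floor of 50 took lower members there from 3 to 2. The causes were not tested.

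The count test across tissues called 0 members with edgeR (smallest adjusted p 0.973) and 1 with DESeq2. No paired analysis was possible because there are no replicates to pair within a tissue, and the count test pairs the states only by tissue. Reads limit LAMP3, AP4S1, CTSW, NAPSA and, outside the ovary, CTSL most, and the spread between sows is not known for any value.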

Other observations

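Members grouped by their other pathway entries, a grouping chosen after the values were seen, gave these ovary values. Of all ovary genes 13.6% were at least 2-fold higher, 10.7% lower and 50.4% above 0. The 7 members of glycosaminoglycan degradation all lay above 0, with a median log2 fold of 0.89 and 3 at least 2-fold higher. With equal library totals NAGLU fell below 0 (105 and 101 RPM) and ARSB fell under the 2-fold line (0.991). The 5 members of sphingolipid metabolism also lay above 0, with a median of 0.86. The 9 cathepsins annotated to apoptosis had 4 higher and 1 lower. In the hypothalamus 8 of these 9 lay below 0, with a median of -0.46, where 49.8% of all genes lay above 0.

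Autophagy genes, which deliver cytoplasm to the lysosome, were a list of 22. In the ovary 0 were at least 2-fold higher and 17 lay above 0, with a median of 0.25 (12 and 0.04 with equal library totals). Of all ovary genes 13.6% were higher, 10.7% lower and 50.4% above 0. GABARAP, a ubiquitin-like protein of the autophagosome membrane, was the 1 gene at least 2-fold lower, at -1.63. It was also lower in the hypothalamus (-1.91) and the pituitary (-1.13).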
